A study of Danio rerio with 17 samples.

Results

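Expression of 5 genes of microglia and macrophages, c1qb, cybb, ctss2.1, marco and apoeb, was followed across the midbrains of 17 male zebrafish. The genes were taken by their Ensembl zebrafish symbols from a table of 15648 genes, and each symbol had 1 row. Single-colour NimbleGen arrays were hybridised with Cy3-labelled cDNA from the midbrain of 1 fish each. The fish were sexually mature males, 1 year old, from 2 populations, Pargana and Transgenic Mosaic 1, and had been fed selenomethionine diets for 10 weeks. The diets held 0.46 ppm selenium (deficient), 1.7 ppm (control) or 3.1 ppm (supplemented). Pargana control fish numbered 2, and the other 5 groups held 3 fish each. The label "Transgenic Mosaic 1" names no transgene or promoter in the sources used here. Values are log2 expression from the authors' RMA summary of the probes of a gene, so 1 unit is a doubling. A level of one gene is not set against the level of another, because the probes differ.

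Microglia are the resident macrophages of the brain, and they take up dead cells, debris and synapses. The complement protein C1q tags such material, scavenger receptors and lipoproteins bind it or its lipids, and lysosomal proteases digest it after uptake. The phagocyte NADPH oxidase makes superoxide at the membrane that surrounds engulfed particles. None of these genes is exclusive to microglia: blood macrophages express several of them, neutrophils carry the oxidase, and apolipoprotein E is also made by astroglia in mammals. In tissue of this kind, fewer cells of a type and less RNA per cell cannot be told apart.

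The labelled tissue was checked against its markers. All 6 measured neuronal markers were high on the arrays, with mean log2 levels from 12.86 to 14.64. Of 16 listed microglia or macrophage markers 11 were measured, with mean levels from 4.88 (ptprc) to 11.56 (csf1rb, a receptor for colony stimulating factor 1). The highest minimum value of any array was 3.77. Array medians ran from 9.62 to 9.73. The populations lay apart on the first principal component (26.0% of the variance). On the second component (9.81%) Pargana control fish 1 lay at 43.3, and the other fish from -24.5 to 16.3. The 2 control fish of Pargana correlated at 0.974 across genes, while pairs of fish within the other groups correlated at 0.980 to 0.991. The label code of Pargana deficient fish 3 carries another population letter than the codes of its group mates. That fish lay at -18.2 on the first component, on the Pargana side. No slide or scan record is given in the sources used here, so array batches could not be examined.

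c1qb (ENSDARG00000044612) encodes the B chain of C1q, the molecule that starts the classical complement pathway. In Pargana its log2 level was 9.70 and 6.83 in the control fish, 7.11, 6.86 and 5.001 in the deficient fish and 7.36, 6.57 and 7.03 in the supplemented fish. In Transgenic Mosaic 1 it was 7.40, 5.87 and 7.29 on the control diet, 6.70, 8.81 and 6.26 on the deficient diet and 7.65, 7.29 and 6.94 on the supplemented diet. Pargana control fish 1 was the highest of all and Pargana deficient fish 3 the lowest, 4.70 log2 units or 26.0-fold apart, and each of the 6 groups overlapped its neighbour in the order of the means. Transgenic Mosaic 1 deficient fish 2 came second. Within groups the residual SD was 1.07, larger than in 98.9% of genes, against a median of 0.23 over all genes.

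cybb (ENSDARG00000056615) encodes gp91phox, the catalytic subunit of the phagocyte NADPH oxidase. Its Pargana levels were 10.86 and 9.48 on the control diet, 8.72, 9.99 and 8.28 on the deficient diet and 9.05, 9.77 and 9.02 on the supplemented diet. Its Transgenic Mosaic 1 levels were 9.15, 9.45 and 9.12, then 9.52, 9.12 and 9.46, then 9.34, 9.04 and 8.91, in the same order of diets. The SD over fish was 0.81 in Pargana (n = 8) and 0.21 in Transgenic Mosaic 1 (n = 9). All 9 Transgenic Mosaic 1 fish lay inside the Pargana range, which ran from deficient fish 3 to control fish 1.

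ctss2.1 (ENSDARG00000074656) encodes a cathepsin S, a cysteine protease of lysosomes that in mammals trims the invariant chain during antigen presentation. It stood at 9.19 and 8.19 in Pargana control fish, at 7.47, 7.81 and 7.29 in deficient fish and at 7.71, 7.75 and 8.52 in supplemented fish. The Transgenic Mosaic 1 values were 8.03, 7.42 and 7.53 on the control diet, 6.97, 9.01 and 7.66 on the deficient diet and 8.92, 7.74 and 7.59 on the supplemented diet. Pargana control fish 1, Transgenic Mosaic 1 deficient fish 2 and Transgenic Mosaic 1 supplemented fish 1 were the 3 highest. The lowest and the second highest fish of this gene ate the same deficient diet in the same population.

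marco (ENSDARG00000059294) encodes a class A scavenger receptor of macrophages that binds bacteria and particles. In Pargana it measured 9.97 and 8.15 on the control diet, 8.05, 8.21 and 7.44 on the deficient diet and 8.93, 8.41 and 8.77 on the supplemented diet. In Transgenic Mosaic 1 it measured 7.98, 8.17 and 8.41, then 8.24, 9.01 and 8.16, then 9.37, 8.24 and 8.39. The same 3 fish as for ctss2.1 were the highest, and Pargana deficient fish 3 was the lowest. The 3 supplemented Pargana fish all lay above the 3 deficient ones, a separation in that direction that 7.04% of all genes showed.

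apoeb (ENSDARG00000040295) encodes 1 of the zebrafish apolipoproteins E, a lipid carrier that zebrafish microglia express strongly. It varied least: its values in Pargana were 14.20 and 13.70 on the control diet, 13.51, 13.53 and 13.49 on the deficient diet and 13.67, 13.56 and 13.48 on the supplemented diet. The Transgenic Mosaic 1 values were 13.57, 13.96 and 13.66, then 13.42, 13.57 and 13.23, then 13.63, 13.36 and 13.47. Highest and lowest fish were 1.97-fold apart, and the residual SD of 0.17 exceeded that of 27.4% of genes. In both populations the control diet had the highest group mean, 13.95 ± 0.35 (SD, n = 2) in Pargana and 13.73 ± 0.20 (SD, n = 3) in Transgenic Mosaic 1.

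**Figure D1:**
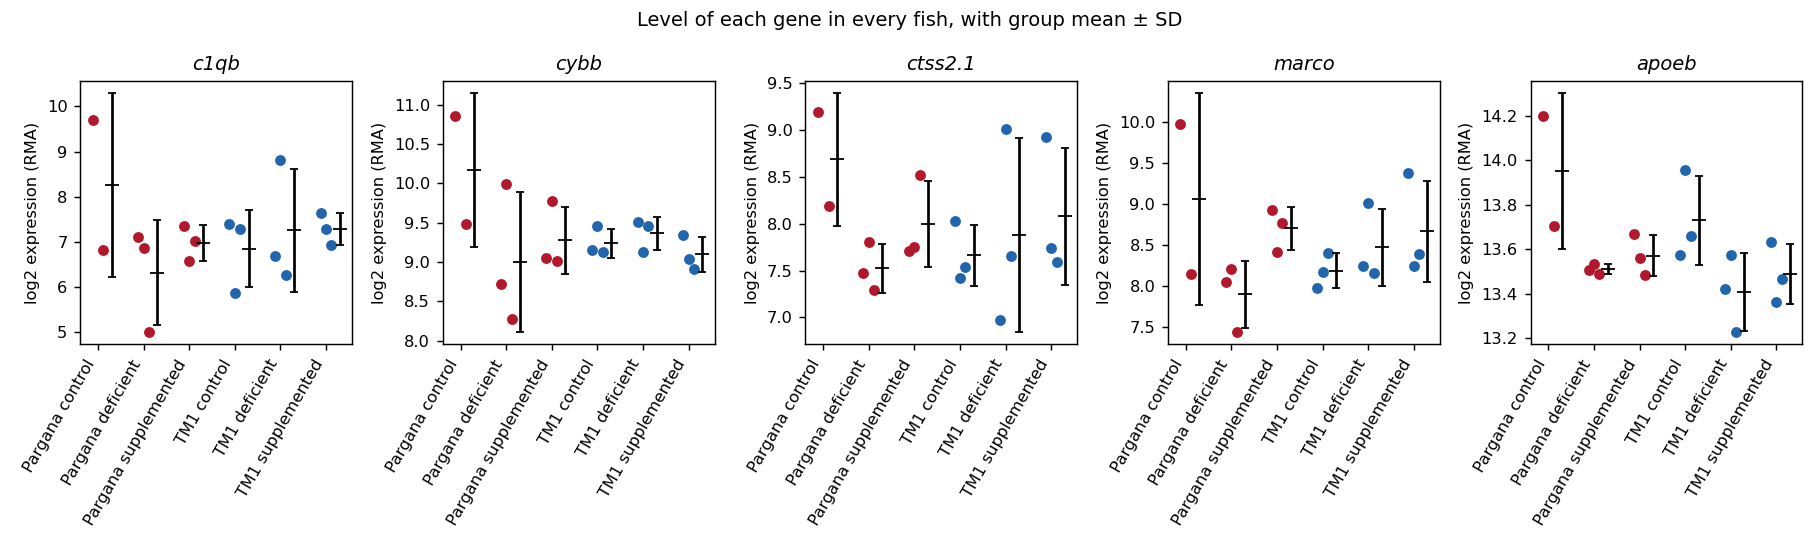
Log2 expression (RMA, vertical axis, a separate scale per gene) of c1qb, cybb, ctss2.1, marco and apoeb in each of the 17 fish, by population and diet. Points are fish, red for Pargana and blue for Transgenic Mosaic 1 (TM1), and black marks show the group mean ± SD; Pargana control fish 1 is the top point of every panel, from 9.19 for ctss2.1 to 14.20 for apoeb.

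Pargana control fish 1 had the highest value of all 5 genes, and no other fish was highest for any. Pargana deficient fish 3 was lowest for 3 of them (c1qb, cybb and marco). Transgenic Mosaic 1 deficient fish 2 and supplemented fish 1 were each among the 3 highest fish for 3 genes, c1qb, ctss2.1 and marco. By contrast the lowest fish for ctss2.1 and for apoeb were other deficient fish of Transgenic Mosaic 1. Over all genes Pargana control fish 1 held the highest value in 8.10%. Without it the SD over fish decreased from 1.04 to 0.83 for c1qb, from 0.56 to 0.41 for cybb, from 0.64 to 0.56 for ctss2.1, from 0.59 to 0.46 for marco and from 0.22 to 0.16 for apoeb.

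The first comparison was that of the populations. No member passed the threshold of 0.05 (limma, adjusted by Benjamini and Hochberg over all genes) when the populations were compared over the 3 diets, where 13.3% of all genes passed. Transgenic Mosaic 1 minus Pargana was -0.06 ± 0.47 (SE) for c1qb, -0.25 ± 0.24 for cybb, -0.19 ± 0.28 for ctss2.1, -0.11 ± 0.25 for marco and -0.14 ± 0.09 for apoeb. Adjusted p in limma ran from 0.331 (apoeb) to 0.954 (c1qb), and the median difference of all genes was -0.01. The 95% interval for c1qb reached from -1.06 to 0.95, and that for apoeb from -0.32 to 0.05. Every member overlapped between the populations. With Pargana control fish 1 left out the differences were 0.42 for c1qb and 0.19 for marco, both of the opposite sign, and -0.02 for cybb, -0.03 for ctss2.1 and -0.05 for apoeb.

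Within single diets 0 of 5 members passed as well, where 0.952% of genes passed on the control diet, 1.44% on the deficient and 3.87% on the supplemented diet. On the control diet all 5 members had the lower mean in Transgenic Mosaic 1, by -1.41 ± 0.87 for c1qb, -0.93 ± 0.44 for cybb, -1.03 ± 0.53 for ctss2.1, -0.87 ± 0.46 for marco and -0.22 ± 0.16 for apoeb (SE). Without Pargana control fish 1 these differences were 0.03 for c1qb, -0.24 for cybb, -0.53 for ctss2.1, 0.04 for marco and 0.03 for apoeb, so 3 of 5 had the opposite sign. On that diet cybb and ctss2.1 had every Transgenic Mosaic 1 fish below both Pargana fish, which held in that direction for 12.5% of all genes. On the deficient diet c1qb, cybb, ctss2.1 and marco had the higher mean in Transgenic Mosaic 1, by 0.36 to 0.93, and apoeb differed by -0.10. Single fish moved these values: without Transgenic Mosaic 1 deficient fish 2 the difference was 0.15 for c1qb, -0.21 for ctss2.1 and 0.30 for marco, and without Pargana deficient fish 3 it was 0.01 for cybb. The interaction of population and diet was not called for any member in limma's moderated F test (adjusted p 0.922 to 0.994, with 0.0383% of genes called).

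The second comparison asked how the genes stood on each selenium diet. In Pargana all 5 had a lower mean on the deficient than on the control diet: -1.94 ± 0.87 (SE) for c1qb, -1.18 ± 0.44 for cybb, -1.16 ± 0.53 for ctss2.1, -1.16 ± 0.46 for marco and -0.44 ± 0.16 for apoeb. None passed the threshold after adjustment (limma, adjusted p 0.610 to 0.698), in a comparison in which 0.0383% of genes did. Unadjusted limma p was 0.0175 to 0.0447 over the 5 genes, and 1103 of the 15648 genes had an unadjusted p under 0.05. The groups did not overlap for ctss2.1 and apoeb, where 10.9% of all genes had every deficient fish below both control fish. Without Pargana control fish 1 the differences were -0.50, -0.49, -0.66, -0.25 and -0.19 in the same order of genes. Without Pargana control fish 2 instead, the control group was control fish 1 alone, and marco differed by -2.07.

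Markers of other cell types also differed in mean in the same comparison, with 0 of them called. Of 5 measured neutrophil markers 5 had a lower mean in deficient than in control Pargana fish, with a median difference of -1.29, and the medians were -0.68 for 3 red blood cell markers, -1.53 for 5 pituitary markers and 0.94 for 5 eye or pineal markers. They were -0.46 for 4 endothelium or mural cell markers and -0.44 for 11 microglia or macrophage markers. The median of all genes was -0.03. The control mean rests on 2 fish. Pargana control fish 1 held the highest value of all fish for all 5 neutrophil and all 3 red blood cell markers. It also did so for 2 endothelium or mural cell and 8 microglia or macrophage markers, and for 0 pituitary and 0 eye or pineal markers. The medians without that fish are not given here. The part of these markers in the result was not tested.

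The supplemented diet against control in Pargana gave -1.28 ± 0.87 (SE) for c1qb, -0.89 ± 0.44 for cybb, -0.69 ± 0.53 for ctss2.1, -0.36 ± 0.46 for marco and -0.38 ± 0.16 for apoeb. No member was called, where 0.032% of genes were. Only apoeb had every supplemented fish below both control fish, as 8.16% of all genes did. The control fish are those of the previous comparison. It gave, without Pargana control fish 1, 0.16 for c1qb and 0.55 for marco, the opposite sign for both. Set against the deficient diet, the supplemented fish had the higher mean for all 5 genes, from 0.06 ± 0.15 for apoeb to 0.80 ± 0.41 for marco, with 0 members and 0% of genes called by limma and 1018 genes at an unadjusted p under 0.05.

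In Transgenic Mosaic 1 the deficient diet against control gave 0.40 ± 0.78 (SE) for c1qb, 0.12 ± 0.40 for cybb, 0.22 ± 0.47 for ctss2.1, 0.28 ± 0.41 for marco and -0.32 ± 0.15 for apoeb. Without deficient fish 2 c1qb stood at -0.37 and ctss2.1 at -0.35, and without control fish 2 c1qb stood at -0.09. The supplemented diet against control gave 0.44 ± 0.78 for c1qb, -0.14 ± 0.40 for cybb, 0.42 ± 0.47 for ctss2.1, 0.48 ± 0.41 for marco and -0.24 ± 0.15 for apoeb. No member passed in either comparison, where 0.0256% and 0.0831% of genes passed, nor between the supplemented and deficient diets, where 0.00639% did.

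apoeb was the 1 member with the same sign in both populations and on both altered diets. Averaged over the populations it was -0.38 ± 0.11 (SE) on the deficient diet and -0.31 ± 0.11 on the supplemented diet relative to control. In limma the unadjusted p was 0.00373 and 0.0134 and the adjusted p 0.630 and 0.789, so neither passed, as 0.032% and 0.0447% of genes did. Control fish ranged from 13.57 to 14.20 (n = 5), deficient fish from 13.23 to 13.57 (n = 6) and supplemented fish from 13.36 to 13.67 (n = 6), and the diets touched or overlapped. Both comparisons share the 5 control fish. They were -0.26 and -0.19 without Pargana control fish 1. With both populations averaged, supplemented against deficient gave 0.01 for cybb to 0.50 for marco, none of them called by limma, where 0% of genes were and 673 had an unadjusted p under 0.05.

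**Figure D2:**
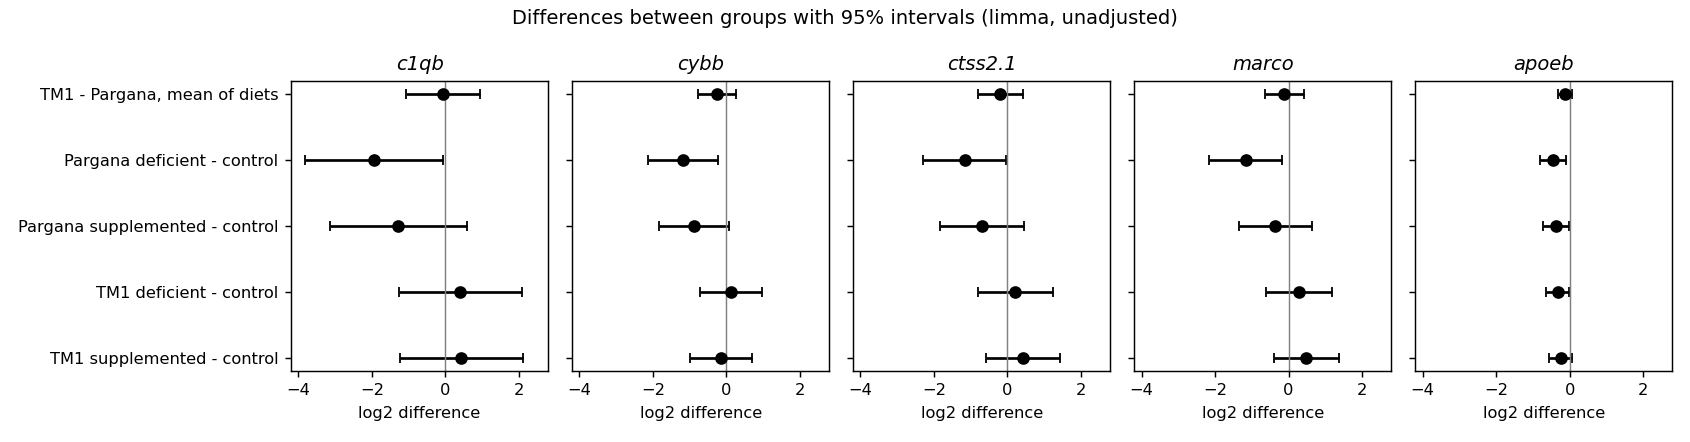
Log2 differences between groups for each of the 5 genes (horizontal axis), with unadjusted 95% intervals from limma, for the population difference and for 4 diet comparisons against control; TM1 is Transgenic Mosaic 1. All 5 points for deficient against control Pargana fish lie left of 0, from -1.94 for c1qb to -0.44 for apoeb, and c1qb has the widest interval in every row.

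How far the 5 genes moved together was described by the 10 pairwise correlations across the 17 fish. Every pair had a Pearson r above 0, with a median of 0.57, and 7 of 10 had a permutation p under 0.05 (100000 permutations, two-sided). The median Spearman rho was 0.34, and 3 pairs had a rho with p under 0.05. Those 3 pairs joined c1qb, ctss2.1 and marco. The p-values of the 10 pairs are not adjusted for their number. Many other genes were set beside each pair, as the share whose r with a member reached that of the pair. It ran from 0.0128% (with ctss2.1, at the r of marco) to 6.93% (with apoeb, at the r of ctss2.1).

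c1qb and marco correlated at r = 0.84 (permutation p = 9.0e-05; rho = 0.60, permutation p = 0.0125). For ctss2.1 and marco r was 0.79 (permutation p = 2.9e-04; rho = 0.55, permutation p = 0.0229). For c1qb and ctss2.1 r was 0.77 (permutation p = 1.4e-04; rho = 0.66, permutation p = 0.00488). With the 2 fish farthest from the median of c1qb left out, Pargana control fish 1 and Pargana deficient fish 3, r was 0.58 for c1qb with marco and 0.67 for c1qb with ctss2.1. The 2 farthest fish for ctss2.1 were Pargana control fish 1 and Transgenic Mosaic 1 deficient fish 2. Leaving them out gave 0.64 for ctss2.1 with marco and 0.51 for c1qb with ctss2.1. For marco the 2 farthest were Pargana control fish 1 and Transgenic Mosaic 1 supplemented fish 1. Without those, r was 0.74 for c1qb with marco and 0.58 for ctss2.1 with marco. So the pairs among these 3 genes kept a positive r with 2 extreme fish left out. At least 1 of the 3 fish highest for these genes stayed in each time, and r without all 3 is not given here.

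The pairs with cybb rested on the extreme fish. r was 0.59 with marco (permutation p = 0.0179; rho 0.22), 0.57 with apoeb (permutation p = 0.0264; rho 0.33), 0.52 with c1qb (permutation p = 0.0388; rho -0.02) and 0.42 with ctss2.1 (permutation p = 0.0948; rho 0.33). Without Pargana control fish 1 and Pargana deficient fish 3, the 2 fish farthest from the median of cybb, these r were -0.13, 0.10, -0.40 and -0.08. The pairs with apoeb gave r = 0.56 with marco (permutation p = 0.0250), 0.46 with c1qb (permutation p = 0.0671) and 0.44 with ctss2.1 (permutation p = 0.0762), and without Pargana control fish 1 they gave 0.18, 0.02 and 0.12. Over all 10 pairs the median r was 0.16 without that fish, and 3 pairs, those of c1qb, ctss2.1 and marco, kept a permutation p under 0.05.

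**Figure D3:**
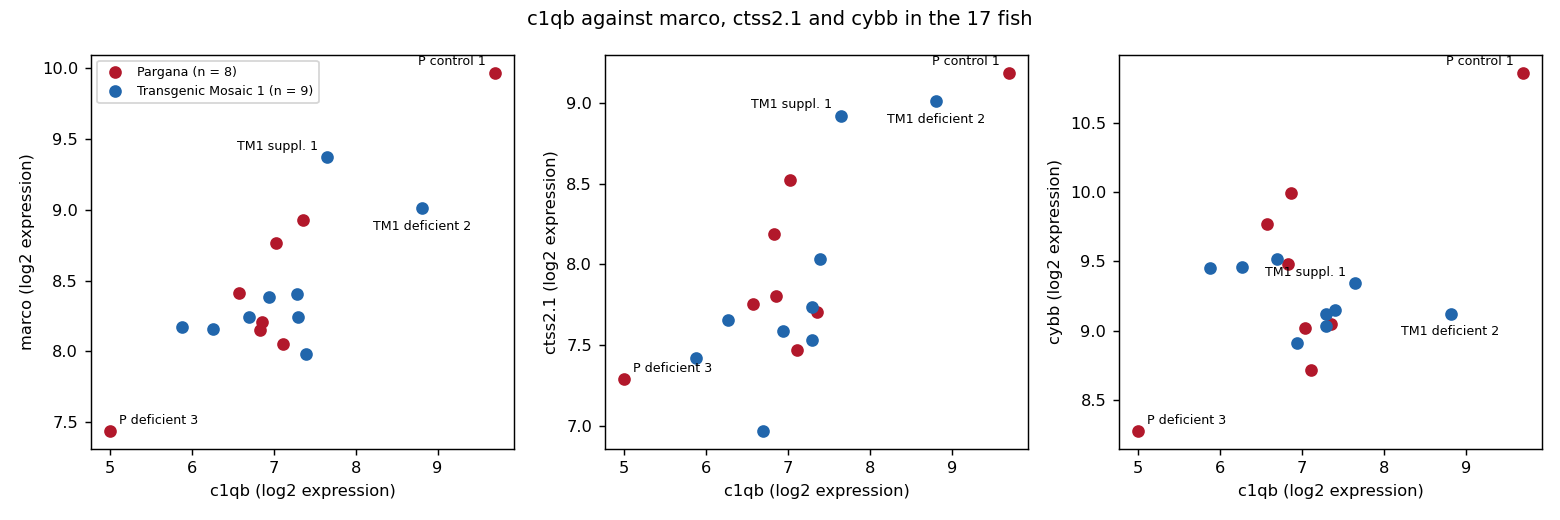
Log2 expression of marco, ctss2.1 and cybb (vertical axes) against c1qb (horizontal axes), with 1 point per fish, red for Pargana (n = 8) and blue for Transgenic Mosaic 1 (TM1, n = 9). Pargana control fish 1 and Pargana deficient fish 3 sit at the ends of c1qb, at 9.70 and 5.001; the cybb panel shows no upward trend among the other 15 fish, where r was -0.40.

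The populations were then taken apart. In the 8 Pargana fish all 10 pairs had an exact permutation p under 0.05, with r from 0.74 to 0.94 and a median of 0.80. The share of all genes that reached such r within 1 population is not given here. By Spearman's rho 0 of these 10 pairs had an exact permutation p under 0.05 (0.0576 to 0.462). Without control fish 1 the Pargana median was 0.40. In the 9 Transgenic Mosaic 1 fish the median r was 0.11 and 4 pairs were below 0, down to -0.51 for c1qb with cybb (exact permutation p = 0.165). There 2 pairs passed: c1qb with ctss2.1 at 0.78 (exact permutation p = 0.0104) and ctss2.1 with marco at 0.80 (exact permutation p = 0.0244). Their rho was 0.85 (exact permutation p = 0.00607) and 0.31 (exact permutation p = 0.415). c1qb with marco gave 0.64 (exact permutation p = 0.0766). A slope allowed to differ between the populations, a setting chosen after seeing the data, was not called for any pair after adjustment in limma (0% of genes called for each of the 5 predictors). For c1qb and cybb the unadjusted limma p of that difference was 0.0356 and 0.0414 in the 2 directions of regression.

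Values minus the mean of the group keep differences between groups out. On these the median r of the pairs was 0.49, and 4 of 10 had an exact p under 0.05 when fish were permuted within groups (15552 arrangements). They were c1qb with marco (0.82, exact p = 0.00643), marco with apoeb (0.77, exact p = 0.0206), ctss2.1 with marco (0.71, exact p = 0.0223) and c1qb with ctss2.1 (0.70, exact p = 0.0131). The r of these 4 pairs was reached by 0.224% to 1.84% of all other genes. For the other pairs the share was 6.65% (cybb with marco) to 26.7% (cybb with ctss2.1). The 2 Pargana control fish are mirror images on such values, so each r counts the extreme fish 1 through both of them. The r on such values without that group is not given here. When each gene of the array was regressed on a member with the group means in the model, no pair of members passed in both directions after adjustment over all other genes. The smallest adjusted p was 0.0528 for c1qb on marco in limma. It was 0.0312 to 0.0405 with control fish 1, control fish 2, supplemented fish 1 or supplemented fish 2 of Transgenic Mosaic 1 left out, and without that control fish 2 marco on apoeb gave 0.0346 (limma). Without either Pargana control fish the adjusted p of c1qb on marco was 0.528 (limma), the highest with any fish left out. At the same threshold slopes above 0 were called for 0.0639% of genes on c1qb, 0.00639% on cybb, 0% on ctss2.1, 0.352% on marco and 0% on apoeb. At an unadjusted p under 0.05 there were 457 such genes on ctss2.1 and 629 on apoeb.

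**Figure D4:**
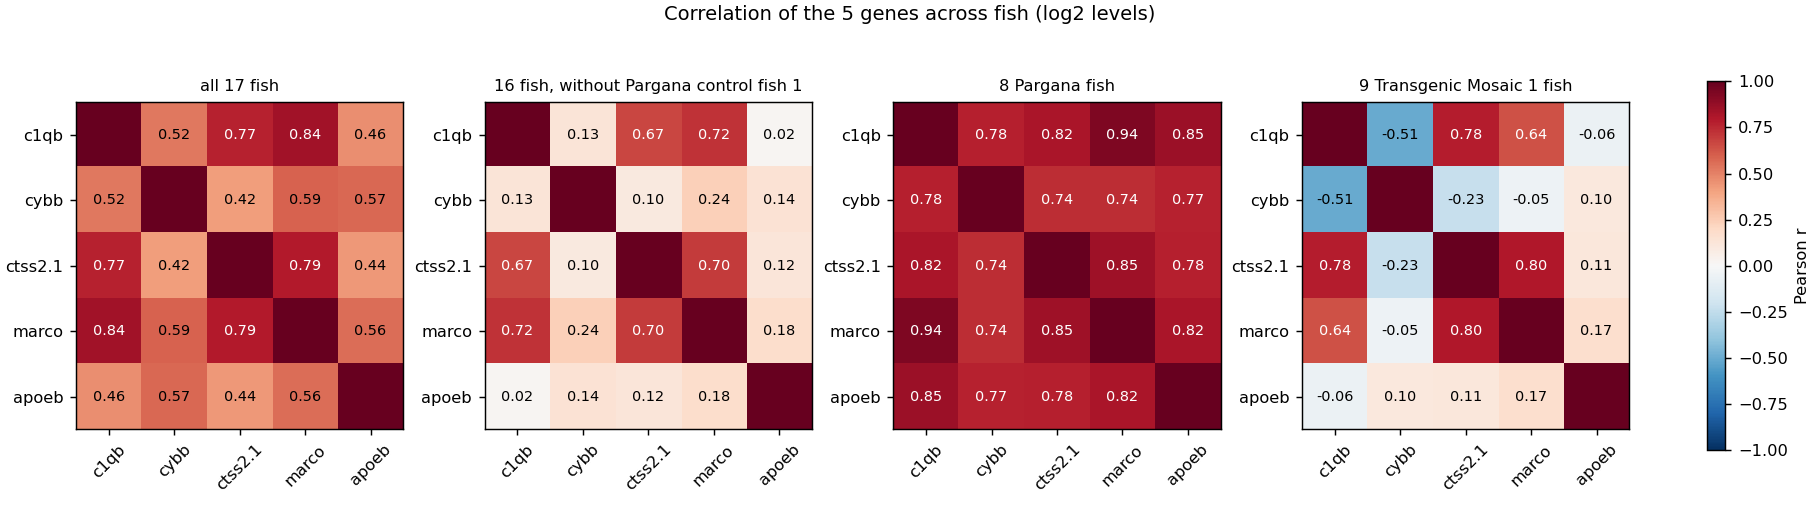
Pearson r of each pair of the 5 genes (colour and number in each cell) over all 17 fish, over 16 fish without Pargana control fish 1, over the 8 Pargana fish and over the 9 Transgenic Mosaic 1 fish. The block of c1qb, ctss2.1 and marco is at or above 0.64 in all 4 panels, whereas the rows of cybb and apoeb are at most 0.24 in the second panel and range from -0.51 to 0.17 in the fourth.

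Other genes of microglia and macrophages were taken from a list of 63 entries, of which 35 were measured. The median r of the 35 with the mean of the 5 members was 0.63 (values minus the group mean), and 28 were above 0. Over all genes the median was -0.07, and 6652 of 15648 were above 0. On levels as measured the median of the list was 0.62 over the 17 fish and 0.30 without Pargana control fish 1. Slopes on marco were called for 7 of the 35, where 0.352% of all genes were called. Among them were itgb2 (the leukocyte integrin beta chain; slope 1.25, adjusted p = 0.00418), cxcr3.2 (a chemokine receptor; 0.81, adjusted p = 0.0122), SPI1 (the myeloid transcription factor PU.1; 0.77, adjusted p = 0.0164), ARPC1B (an actin nucleation subunit; 0.76, adjusted p = 0.0164), ifi30a (a lysosomal thiol reductase; 0.61, adjusted p = 0.0173) and lgals9l1 (a galectin; 1.60, adjusted p = 0.0323), all from limma. lgals9l1 and ARPC1B also had slopes on c1qb (0.86 and 0.40, adjusted p = 0.0492 for both in limma). No member of this list was called on cybb, ctss2.1 or apoeb. Without either of the Pargana control fish, 0 genes of the array had a called slope on c1qb or marco.

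itgb2 measured 10.56 in Pargana control fish 1, 9.73 in Transgenic Mosaic 1 deficient fish 2 and 9.75 in Transgenic Mosaic 1 supplemented fish 1, with a median of 8.53 over the fish other than Pargana control fish 1. lgals9l1 measured 11.50, 10.74 and 10.62 in the same 3 fish, with a median of 9.35. Pargana deficient fish 3 measured 7.94 for itgb2 and 8.69 for lgals9l1. Both genes are named for their correlation with the members, so these values only describe it.

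Genes of the system of each member were described in turn, by their r with the mean of the 5 members unless another gene is named. That mean was taken without scaling the genes, so genes of wider spread weighed more in it. For c1qb, 19 other complement genes were measured, and 13 had an r above 0 with the mean of the members (values minus the group mean; median 0.28). On levels as measured the median was 0.06 over the 17 fish and 0.10 without Pargana control fish 1. c5ar1, the receptor for the C5a fragment, had the highest r of values minus the group mean at 0.77, and its slope on marco was 1.36 (limma, adjusted p = 0.0184). In Pargana control fish 1 the level of c3a.1, a gene of the central component C3, was 10.88, while the other fish ran from 5.40 to 6.96. For c4b it was 9.40 against 5.34 to 6.81. These 2 values were picked out once seen.

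For cybb, 9 other NADPH oxidase genes were measured, with a median r of 0.34 with the mean of the members (values minus the group mean). cybb itself had an r of 0.58 with that mean, against 0.92 for c1qb and 0.94 for marco. Each member is part of that mean, which raises its r, so these values are not set against those of the oxidase genes. The r of the oxidase genes with cybb alone is not given here. The regulatory subunits NCF1 (0.81), cyba (0.63) and NCF4 (0.59) and the GTPase rac1a (0.37) were above the median. On levels as measured these 4 r were 0.63, 0.64, 0.59 and 0.20 over the 17 fish, and 0.49, 0.28, -0.05 and 0.27 without Pargana control fish 1. cyba, the p22phox partner of gp91phox in the membrane, measured 7.86 in Pargana control fish 1 and had a median of 6.14 over the others. NCF1 measured 10.26 in that fish.

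For ctss2.1, 24 other genes of cathepsins and lysosomes were measured. Of these, 19 had an r above 0 with the mean of the members (values minus the group mean, median 0.29). The highest were CTSK (cathepsin K, 0.81), ctss2.2 (0.77), CTSZ (0.76), grna (a granulin precursor, 0.72), CTSH (0.69) and ctsl.1 (0.64). With ctss2.1 itself, on the same values, r was 0.64 for CTSK and 0.31 for ctss2.2. With the mean of the members, as measured without Pargana control fish 1, the genes named gave 0.31 (CTSZ) to 0.78 (CTSK). In the RefSeq annotation of GRCz12tu ctss2.1 lies between ctsk and ctss2.2. Its r across the 17 fish was 0.74 with CTSK and 0.39 with ctss2.2, and 0.64 and 0.13 without Pargana control fish 1. CTSK kept a positive r with ctss2.1 in each population, 0.79 in Pargana and 0.71 in Transgenic Mosaic 1, whereas ctss2.2 gave 0.65 and -0.01. Probe sequences were not used here, so whether probes of the neighbouring ctss2 copies share targets was not tested.

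For marco and apoeb, 21 other genes of scavenger receptors and lipoproteins were measured. Their median r with the mean of the members was -0.09, close to that of all genes, and 10 were above 0. mrc1b, a mannose receptor (0.67), apoda.1 (0.62) and apoc1 (0.51) were the highest. On levels as measured their r were 0.73, 0.47 and 0.60 over the 17 fish, and 0.42, 0.14 and 0.44 without Pargana control fish 1. The mean level of apoda.1 was 4.82, low on the arrays. apoc1 lies beside apoeb in the RefSeq annotation, and encodes a small apolipoprotein. Its r with apoeb was 0.14 across the 17 fish, 0.72 in Pargana and -0.68 in Transgenic Mosaic 1, and with Pargana control fish 1 left out it was -0.29. The difference between the populations was not tested for this pair.

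The genes most like each member in values minus the group mean (17 fish) were named by rule. For c1qb they were PLPP2 (r = 0.95), cxcr3.3 (0.91), rgs13a (0.91), tfa (0.90) and nutf2l (0.90). For cybb they were AQP1 (0.93), GALC (0.91), C18H11orf58 (0.90), rhoab (0.88) and ALDH8A1 (0.88). For ctss2.1 the closest were CSNK2B (0.94), lygl1 (0.86), CTCF (0.86), EIF4EBP2 (0.85) and rab41 (0.83). No gene was shared among these lists.

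The genes named for marco were itgb2 (0.94), fas (0.93), tgm2l (0.93) and zgc:64051 (0.92), and those for apoeb were hps5 (0.88), SPI1 (0.87), mhc1zaa (0.86), DRD5 (0.85) and NUAK2 (0.85). As measured, without the subtraction, the r of marco with these 4 genes was 0.83 to 0.90, and without Pargana control fish 1 it was 0.71 to 0.85. The r of ctss2.1 with CSNK2B as measured was 0.44 and that of cybb with rhoab was 0.16. As measured without Pargana control fish 1, the genes named for c1qb gave 0.20 (tfa) to 0.81 (nutf2l) and those for cybb 0.42 (rhoab) to 0.76 (GALC). Those for ctss2.1 gave 0.34 (rab41) to 0.64 (CTCF) and those for apoeb 0.30 (mhc1zaa) to 0.66 (SPI1). itgb2 and SPI1 also belong to the list of microglia and macrophage genes.

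Markers of other cell types were read beside the members, because one fish led all 5. In Pargana control fish 1 the 5 neutrophil markers measured were each at their highest of the 17 fish. lyz (lysozyme) measured 11.89 there and 7.33 to 10.24 in the other fish, CSF3R 11.48 against 8.47 to 9.48, npsn 9.92 against 5.75 to 8.99, MMP9 9.11 against 5.42 to 6.43 and nccrp1 8.39 against 6.21 to 7.30. The neutrophil score, the mean over genes of the level minus the gene mean, was 2.47 in that fish and -0.93 to 0.34 in the others. All 3 red blood cell markers were highest in it too (score 0.84, others -0.45 to 0.49). So were the scores of radial glia or astrocyte markers (0.66, others -0.32 to 0.16, with 3 of 6 genes highest) and of endothelium or mural cell markers (0.59, others -0.35 to 0.30, with 2 of 4 genes highest). Single radial glia or astrocyte markers stood -0.20 to 3.38 from the mean of the other fish there (median 0.32). That score therefore leaned on the marker with the largest difference.

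Of the 11 microglia or macrophage markers 8 were highest in the same fish, and its score was 0.93 against -0.29 to 0.39. MPEG1, the perforin-2 gene of macrophages, measured 7.47 there and 4.62 to 6.37 in the others. csf1rb led by less, at 12.25 against 10.93 to 12.19, as did P2RY12, at 8.02 against 6.57 to 7.83. SLC7A7 went the other way, at 7.75 against a median of 8.47 in the others. Of the 11 markers 10 stood above their median of the other fish in Pargana control fish 1. The neuron score was -0.01 in that fish and -0.12 to 0.11 in the others. Pargana deficient fish 3, the lowest for 3 members, had the lowest neutrophil score, -0.93, and a microglia or macrophage score of -0.23. Transgenic Mosaic 1 deficient fish 2 and supplemented fish 1 had the next highest microglia or macrophage scores, 0.39 and 0.30, with neutrophil scores of 0.10 and -0.18. In that deficient fish csf1rb was nevertheless the lowest of all fish, at 10.93.

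Across the 17 fish the score of the members correlated with the microglia or macrophage score at 0.91 and with the neutrophil score at 0.79, and without Pargana control fish 1 at 0.78 and 0.41. The radial glia or astrocyte score (6 genes) gave 0.70 and 0.30, and the T or NK cell score (4 genes) 0.49 and 0.59. For the red blood cell score the values were 0.50 and 0.01, and for the neuron score -0.13 and -0.17. In Pargana control fish 1 the radial glia or astrocyte score leaned on a single marker, as given above. These are descriptions over fish that share group structure. Of 4 T or NK cell markers measured none was highest in Pargana control fish 1. B cell markers were not measured. The part of blood cells in the levels of the members was not tested.

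**Figure D5:**
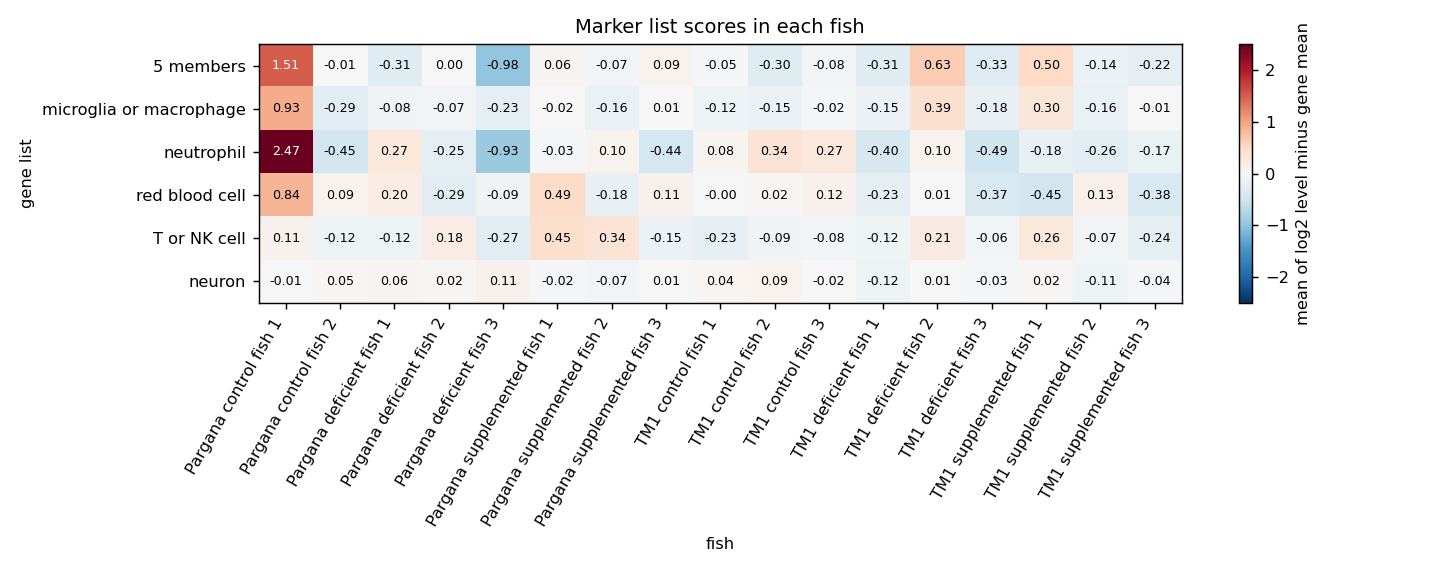
Scores of 6 gene lists (rows) in each of the 17 fish (columns): the mean over genes of the log2 level minus the mean of the gene over all fish, given by colour and number; TM1 is Transgenic Mosaic 1. Pargana control fish 1 has the top score for the 5 genes (1.51), for microglia or macrophage markers (0.93), for neutrophil markers (2.47) and for red blood cell markers (0.84), while neuron scores stay between -0.12 and 0.11.

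Other genes of the same systems were called between the populations. Of 108 genes other than the members on the 5 related lists 16 passed the threshold for the population difference (14.8%, against 13.3% of all genes). TLR2, a sensor of bacterial lipoproteins, was higher in Transgenic Mosaic 1 by 1.25 ± 0.18 (SE; adjusted p = 7.7e-04 in limma). NPC2, the lysosomal cholesterol carrier, was higher by 0.69 ± 0.14 (adjusted p = 0.00579), and SLC7A7, an amino acid transporter needed by zebrafish microglia, by 0.65 ± 0.12 (adjusted p = 0.00379). P2RY12, the microglial ADP receptor, was lower by -0.55 ± 0.15 (adjusted p = 0.0256), AIF1L by -0.34 ± 0.08 (adjusted p = 0.0115) and VLDLR, a receptor for apolipoprotein E, by -0.26 ± 0.07 (adjusted p = 0.0206).

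Higher in Transgenic Mosaic 1 were also apoa1a (0.76), NCF1 (0.58) and c3a.3 (0.37). Lower were tlr9 (-0.94), c3b.1 (-0.82), duox (-0.66), CD36 (-0.48), CTSZ (-0.39), cd40 (-0.39) and scarb2c (-0.35). The levels of c3a.3 and tlr9 were low on the arrays. Their means were 4.27 and 5.14 in Pargana and 4.63 and 4.13 in Transgenic Mosaic 1. Only c3a.3, NPC2, VLDLR, AIF1L, SLC7A7 and TLR2 kept the call with each fish left out in turn, and the other 10 lost it without at least 1 fish. Genes of the microglia and macrophage list were thus called in both directions, 2 higher and 4 lower of 35. On the supplemented diet TLR2 differed by 2.18 ± 0.31 (SE; adjusted p = 0.00264 in limma), with all 3 Transgenic Mosaic 1 fish at 10.53, 9.78 and 10.30 and the Pargana fish at 7.69, 7.93 and 8.45. On the control diet, with 2 Pargana fish, AIF1L differed by -0.96 ± 0.14 (adjusted p = 0.00539 in limma). Its difference averaged over the 3 diets, -0.34, therefore rested mainly on the control diet. AIF1L was not called on the deficient or the supplemented diet, and its differences there are not given here. Of the related lists no gene was called in any diet comparison within a population.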

How the data were processed

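Per the labels' protocols, Trizol total RNA of single midbrains was made into cDNA with random hexamers and labelled with Cy3. Per the submitters' processing notes, the authors deposited log2 expression values made by RMA with Zv9; no version is given in the sources used here. Of 15649 features, 1 without a gene was left out. Group means were fitted with limma 3.58.1 in R 4.3.3 over 17 arrays, and p-values were adjusted by Benjamini and Hochberg over 15648 genes (two-sided, threshold 0.05). Nothing states separate tanks or clutches, so p-values measure the spread between fish only. Correlations used 100000 permutations, or all permutations within a population or group. The members and the 18 gene lists were chosen with earlier results of these data known. Of 295 list entries 176 were measured, 153 by symbol and 23 by another name. Named genes were the members, the 5 genes most correlated with each, up to 6 genes per related list by correlation with the member mean plus those called, and up to 3 per cell type list by level; other marker genes were named after their values were seen. A few of the genes so picked are not reported here. On simulated data of 15648 genes the population test recovered 92.5% of changes of 1 log2 unit and the supplemented against control test in Transgenic Mosaic 1 56.7%. For changes of 0.5 log2 units the same 2 tests recovered 59.7% and 14.9%. Diet comparisons in Pargana, with 2 control fish, were not simulated. The changed genes were drawn from all genes, whose median residual SD was 0.23. The residual SD was 1.07 for c1qb, 0.53 for cybb, 0.64 for ctss2.1, 0.56 for marco and 0.17 for apoeb. The recovery rates therefore do not apply to the first 4 of these genes, whose spread was wider. Alternatives were other normalizations, filters, models and fish left out. The number of arrays limits the precision.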

Additional observations from a re-analysis of the deposited data

Results flagged for a closer look

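The apoeb level of Pargana control fish 1, 14.20, stood apart from the other 7 Pargana fish. Its gap to the next highest fish was 0.695 of the whole range of the 8 Pargana fish, above Dixon's critical value of 0.526. The next highest was the other control fish at 13.70. In all, 10 sets of fish were examined, the 5 genes in each population, and 1 stood out, where chance flags about 1 in 20. For c1qb the same fish had a gap of 0.499 of the range.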

How the results depend on the processing

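No member passed the threshold under any other normalization, filter, variance model or set of arrays tried, with 1 exception. That was marco in deficient against control Pargana fish without Pargana control fish 2, a fit with control fish 1 as the only control fish. Pairs moving together within groups numbered 0, and 1 with population only in the model. Correlated pairs numbered 7, 3 by Spearman, 4 on values minus the group mean and 3 to 9 with 1 fish left out. The sign turned for marco between populations on the supplemented diet (0.00218, arrays centred on their medians), for cybb in supplemented against deficient over both populations (-0.00984 centred, -0.0190 after quantile normalization), for ctss2.1 between populations on the supplemented diet (-0.102, array weights), for c1qb in deficient against control in Transgenic Mosaic 1 (-0.0839, array weights), for c1qb between populations without interaction (0.0394) and for c1qb with cybb by Spearman (-0.0245). The cause was not tested.

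With 1 fish left out the sign also turned in the following ranges. For c1qb they were -0.536 to 0.421 between populations, -2.85 to 0.0253 on the control diet, -2.71 to 0.157 and -0.00125 to 1.05 for Pargana supplemented against control and deficient, -0.375 to 0.900, -0.0511 to 0.710 and -0.462 to 0.813 for Transgenic Mosaic 1 deficient against control, supplemented against control and supplemented against deficient, and -1.14 to 0.298 for supplemented against control over both. For marco they were -0.417 to 0.191 between populations, -1.78 to 0.0388 and -0.387 to 0.177 on the control and supplemented diets, -1.27 to 0.555 for Pargana supplemented against control, -0.156 to 0.467 for Transgenic Mosaic 1 supplemented against deficient, and -0.893 to 0.0187 and -0.394 to 0.518 for deficient and supplemented against control over both. For ctss2.1 they were -0.210 to 0.812 and -0.332 to 0.352 between populations on the deficient and supplemented diets, -0.348 to 0.673 and -0.252 to 0.770 for Transgenic Mosaic 1 deficient against control and supplemented against deficient, and -0.386 to 0.115 for supplemented against control over both. For cybb they were -0.313 to 0.0628 between populations on the supplemented diet, and -0.0744 to 0.781 and -0.171 to 0.257 for supplemented against deficient in Pargana and over both. For apoeb they were -0.471 to 0.0267 between populations on the control diet and -0.00977 to 0.164 for Transgenic Mosaic 1 supplemented against deficient.

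Counts of called genes over the whole array moved by more than 1.5 times between settings. With 1 fish left out they ran from 3 to 198 (6 with all fish) for Pargana deficient against control, 2 to 162 (5) for supplemented against control, 5 to 98 (5) and 6 to 90 (7) for the same over both populations, 5 to 87 (6) for the interaction, 237 to 680 (606) between populations on the supplemented diet, 0 to 73 (55) for slopes on marco, 0 to 56 (0) on apoeb and 0 to 24 (10) on c1qb, among others. Other settings gave 84 to 499 (225) between populations on the deficient diet, 428 to 1324 (606) on the supplemented diet and 39 to 151 (149) on the control diet. No paired analysis was possible because each array held the midbrain of a different fish. The labels give no replicate numbers, and the fish numbers used here follow the order of the samples. Another feature of the same symbol was not run, because each member has 1.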
